A study of Mus musculus with 20 samples.

Results

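Prostaglandin synthesis, sensing and breakdown in the mouse kidney was followed here through 10 genes, Pla2g4a, Ptgs1, Ptgs2, Ptges, Ptgds, Ptger1, Ptger2, Ptger3, Ptger4 and Hpgd. They were chosen by name from the known pathway, with earlier results of these data known, and all 10 are among the 27827 gene names of the array. Total kidney RNA of male C57BL/6 mice aged 8 to 12 weeks was hybridised to 20 single-colour Agilent arrays, 4 in each of 5 groups. Control mice had no surgery and no treatment. IRI mice had both renal pedicles clamped for 45 min and were killed after 6 h of reperfusion. IRI+Hemin mice received 25 mg/kg of Hemin, an inducer of heme oxygenase 1, 24 h before the same surgery, and Hemin mice received it without surgery. IPC+IRI mice had been preconditioned by 15 min of clamping 7 days before the 45 min of ischemia. There was no sham-operated group, so each comparison of operated mice with Control or Hemin mice includes anesthesia and laparotomy. IPC+IRI vs IRI includes the earlier operation for preconditioning, since no first operation is described for IRI mice. No vehicle-injected group is described either, so comparisons of Hemin-treated with untreated mice include the injection. The labels number 4 replicates per group without saying that each is 1 animal, so the p-values measure the spread between these samples.

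Prostaglandins are made in steps. Phospholipase A2 enzymes such as the product of Pla2g4a free arachidonic acid from membranes, the cyclooxygenases encoded by Ptgs1 and Ptgs2 turn it into PGH2, and terminal synthases convert this into single prostaglandins, PGE2 by the product of Ptges and PGD2 by that of Ptgds. PGE2 acts on 4 receptors, EP1 to EP4, encoded by Ptger1 to Ptger4, and is inactivated by the dehydrogenase encoded by Hpgd. In the kidney PGE2 is known for its part in renal blood flow, renin release and the handling of salt and water.

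Values are given as log2 expression, the log2 of a gene's mean background-subtracted probe signal over the 75th percentile of its array, so 0 lies at that percentile. The level of 1 gene cannot be set against that of another on these arrays, since probes differ in brightness, and only groups are compared. Where the levels of several marker genes are summed, their linear signals are added, so the brightest genes weigh most. A gene counts as measured on an array where the scanner software put at least 1 of its probes well above background. Differences were tested with limma over all genes that were measured on 3 or 4 arrays of 1 of the groups compared, and called at an adjusted p below 0.05. With total kidney RNA, fewer cells of a type and less RNA per cell cannot be told apart.

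Between 57.4% and 67.4% of gene names were well above background on an array, and arrays of 1 group correlated at 0.9752 to 0.9949 on the log2 scale. The 5 groups lay on 5 slides, 1 group to a slide, which means that group cannot be told apart from slide. Control and IRI arrays shared the first scan day, IRI+Hemin arrays were scanned on the second, and IPC+IRI and Hemin arrays shared the third. Of the comparisons below, only IRI vs Control lies within 1 scan day, and in the others scan day and group cannot be told apart. The 4 proximal tubule markers and both thick ascending limb markers were well above background on all 20 arrays. Neutrophil markers moved with ischemia: their summed log2 level lay between -2.34 and -0.88 in Control, 1.28 and 3.00 in IRI, 1.06 and 3.23 in IRI+Hemin, 2.65 and 4.26 in IPC+IRI, and -1.34 and 0.61 in Hemin, over S100a8, S100a9 and Csf3r. Csf3r was well above background on none of the 4 Control and none of the 4 Hemin arrays. The part of these cells in the results below was not tested.

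**Figure D1:**
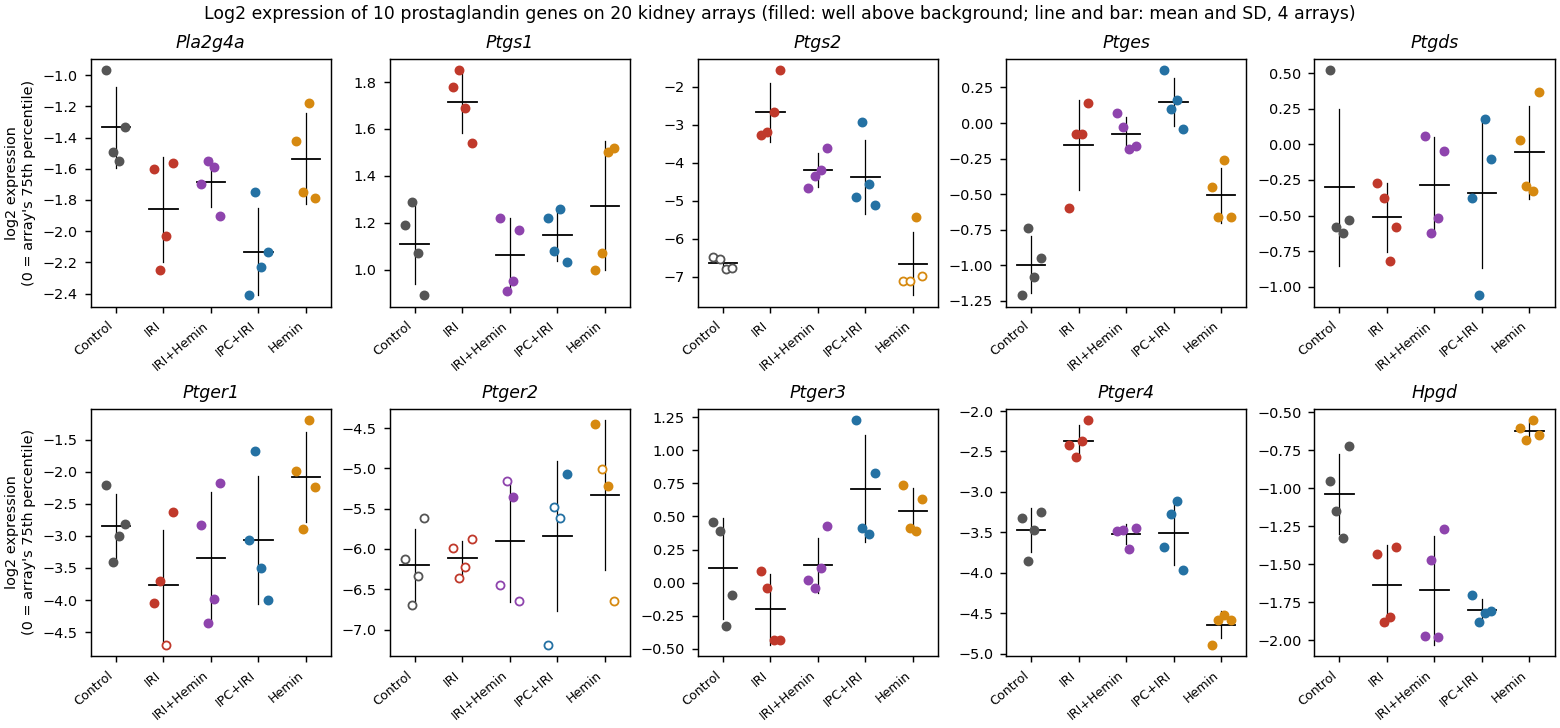
Log2 expression of the 10 genes on every array, by group, on a vertical axis of its own for each gene. Filled points are arrays well above background, open points are not, and lines with bars give the mean and SD over 4 arrays. Group means of Ptgs2 span from -6.66 in Hemin to -2.67 in IRI, with Control at -6.64, and Ptger4 is highest in IRI (-2.37) and lowest in Hemin (-4.64).

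Of the 9 genes tested in IRI vs Control, 4 were higher in injured kidneys (Ptgs1, Ptgs2, Ptges and Ptger4) and 2 were lower (Pla2g4a and Hpgd). All 6 had groups that did not overlap, which was so for 46.1% of all genes tested. Among all 17711 genes tested in that comparison, 17.1% were called higher and 33.9% lower, so calls were frequent everywhere. Ptgs2 entered this test only through the IRI arrays, on which it was higher. The median difference over the 9 genes was -0.21 and over all genes -0.17. Ptger2 was not tested.

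Pla2g4a encodes the cytosolic phospholipase A2 that supplies the cyclooxygenases. Its log2 expression was -0.97, -1.49, -1.55 and -1.33 in Control, -1.60, -2.25, -2.03 and -1.56 in IRI, and -2.41, -1.75, -2.23 and -2.13 in IPC+IRI. All arrays of both ischemic groups lay below all Control arrays. Pla2g4a fell by 0.53 in IRI (SE 0.19, adjusted p = 0.0249) and by 0.80 in IPC+IRI (SE 0.19, adjusted p = 0.00154). The fall in IRI was lost without Control replicate 1 (-0.40, adjusted p = 0.093), IRI replicate 2 (-0.40, adjusted p = 0.0948) or IRI replicate 3 (-0.47, adjusted p = 0.0679). It was also lost with quantile normalization (-0.38, adjusted p = 0.0882), normexp, a background correction that compresses dim signals (-0.20, adjusted p = 0.412), no scaling between arrays (-0.41, adjusted p = 0.403) and the compared arrays alone (-0.53, adjusted p = 0.0508). Without scaling, IPC+IRI vs Control was -0.36 (adjusted p = 0.405), or -0.71 relative to a median over all genes of 0.35. IRI+Hemin arrays read -1.70, -1.55, -1.59 and -1.90 and Hemin arrays -1.42, -1.75, -1.18 and -1.79. These groups overlapped each other, and no comparison with Hemin called Pla2g4a. Of the 4 proximal tubule markers 1 was lower in IRI vs Control, Lrp2 by 0.95 (adjusted p = 7.35e-07), and 2 were lower in IPC+IRI vs Control, Lrp2 by 0.71 (adjusted p = 1.52e-05) and Slc34a1 by 0.74 (adjusted p = 0.000196). The summed log2 level of the 4 markers lay between 8.26 and 8.46 in Control, 7.91 and 8.39 in IRI, 7.41 and 7.90 in IRI+Hemin, 7.38 and 7.86 in IPC+IRI, and 7.95 and 8.16 in Hemin. Slc34a1 was the brightest of the 4 and weighs most in that sum. In IRI+Hemin vs IRI Slc34a1 was lower by 0.91 (adjusted p = 6.18e-05) and Lrp2 higher by 0.34 (adjusted p = 0.00995). Slc22a6 and Slc5a2 were not called there. The part of these cells in the values of Pla2g4a, Hpgd and the other genes that fell was not tested.

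Ptgs2, which encodes the inducible cyclooxygenase COX-2, showed the widest range of group means of the 10 genes. Its log2 expression was -6.48, -6.53, -6.80 and -6.77 on the Control arrays, none of them well above background. On the IRI arrays it was -3.26, -3.19, -2.67 and -1.57, all well above background. Every IRI array thus lay above every Control array. The group means differed by 3.97 ± 0.46 (SE, adjusted p = 2.2e-06), and against the lowest signal that was well above background on the Control arrays the IRI mean was at least 3.93-fold higher. Its promoter is shown because it belongs to the gene with the largest rise and held 3 of the motifs searched.

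The promoters are RefSeq windows of build GRCm38.p6 that run from 250 bases before to 50 after the annotated start, written 5′ to 3′ along the gene. Capitals mark matches, on either strand, to any of 8 motifs: the TATA box TATAAA, the cAMP response element TGACGTCA and its shorter core CGTCA, the AP-1 site TGANTCA, the E-box CACGTG, the kappaB pattern GGGNNTTNC, the HIF core ACGTG and the C/EBP site TTNNGNAAT. Ptger4 is shown as the receptor that rose, Ptgs1 as the other cyclooxygenase that rose, and Hpgd as the breakdown gene that fell.
Ptgs2, chr1:150099781-150100080, plus strand: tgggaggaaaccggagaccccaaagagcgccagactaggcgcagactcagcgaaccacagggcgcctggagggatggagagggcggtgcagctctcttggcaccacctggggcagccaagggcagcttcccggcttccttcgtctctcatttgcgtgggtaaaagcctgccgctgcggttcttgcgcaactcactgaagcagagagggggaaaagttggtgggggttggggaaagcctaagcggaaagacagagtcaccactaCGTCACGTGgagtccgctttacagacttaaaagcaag
Ptgs1, chr2:36230176-36230475, plus strand: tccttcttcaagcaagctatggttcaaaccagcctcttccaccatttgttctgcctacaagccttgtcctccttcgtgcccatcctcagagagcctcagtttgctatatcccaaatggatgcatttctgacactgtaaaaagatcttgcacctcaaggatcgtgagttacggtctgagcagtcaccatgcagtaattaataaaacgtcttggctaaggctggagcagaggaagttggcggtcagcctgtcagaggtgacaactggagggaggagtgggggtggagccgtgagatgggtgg
Ptger4, chr15:5244138-5244437, minus strand: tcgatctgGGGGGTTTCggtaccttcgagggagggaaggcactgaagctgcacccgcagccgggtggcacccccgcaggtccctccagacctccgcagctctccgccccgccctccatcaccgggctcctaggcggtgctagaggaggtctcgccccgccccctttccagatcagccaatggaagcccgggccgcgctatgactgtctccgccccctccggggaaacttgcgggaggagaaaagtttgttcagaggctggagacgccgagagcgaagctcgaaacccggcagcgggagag
Hpgd, chr8:56294302-56294601, plus strand: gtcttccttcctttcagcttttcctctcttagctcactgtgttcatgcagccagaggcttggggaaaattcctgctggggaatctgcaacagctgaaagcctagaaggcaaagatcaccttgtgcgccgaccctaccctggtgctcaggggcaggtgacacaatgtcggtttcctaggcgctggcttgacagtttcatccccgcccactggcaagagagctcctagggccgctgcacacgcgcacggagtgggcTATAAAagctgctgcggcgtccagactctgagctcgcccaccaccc
In the Ptgs2 window, CGTCA lay at bases 13 to 17 after the annotated start, counted from 0 there, and overlapped the palindrome CACGTG at bases 16 to 21, which itself holds ACGTG on both strands. CGTCA was found in 20.8%, CACGTG in 7.15% and ACGTG in 19.6% of the 32851 windows of the RefSeq table. Ptger4 held GGGNNTTNC, present in 15.2% of windows, and Hpgd held TATAAA, present in 13.6%. The windows of Ptgs1 and Ptges held none of the 8. Of the 10 genes, 9 had a window in the table, and Ptger1 had none. Pla2g4a had 2 windows, of which the second held TATAAA on the opposite strand. TGACGTCA was in none of the members' windows and in 1.79% of all, TGANTCA was in that of Ptgds and in 7.81% of all, and TTNNGNAAT was in that of Ptger2 and in 11.5% of all. A match is a run of letters and not a binding site, and the 4 genes that rose shared none of the 8 motifs in these windows.

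Pretreatment and preconditioning went with lower Ptgs2 after ischemia. The IRI+Hemin arrays read -4.67, -4.34, -4.20 and -3.60, and the IPC+IRI arrays -4.90, -2.94, -4.55 and -5.11. All IRI+Hemin arrays lay below all IRI arrays, whereas IPC+IRI replicate 2 lay within the IRI range. The difference from IRI was -1.53 ± 0.46 in IRI+Hemin (adjusted p = 0.0119) and -1.70 ± 0.46 in IPC+IRI (adjusted p = 0.0062). Both comparisons share the IRI arrays. Ptgs2 was still higher than without ischemia in both protocols. It was higher by 2.27 ± 0.46 in IPC+IRI vs Control (adjusted p = 0.00047, at least 1.21-fold) and by 2.45 ± 0.46 in IRI+Hemin vs Hemin (adjusted p = 0.00041). The bound in IPC+IRI rests on replicate 2, without which the mean of -4.86 lay below the Control limit of -4.65 and no bound was left. The difference was still called by limma without that array. Only 1 of the 4 Hemin arrays was well above background, so the size of the last difference rests largely on background readings. With normexp those differences were 0.05 (adjusted p = 0.856) and 0.36 (adjusted p = 0.183). Without scaling between arrays the difference of IRI+Hemin from IRI was -1.17 (adjusted p = 0.0758), while the median over all genes was then 0.45.

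The Hemin arrays read -7.12, -7.12, -5.42 and -6.97 for Ptgs2, and only replicate 3 was well above background. Hemin vs Control was therefore not tested by limma. The means of -6.66 and -6.64 gave an exact two-sided permutation p of 1.0, in a design of 4 against 4 arrays in which the smallest p is 0.029. Ordered by mean, Ptgs2 ran from IRI (-2.67) through IRI+Hemin (-4.20) and IPC+IRI (-4.38) to Control (-6.64) and Hemin (-6.66). IRI+Hemin and IPC+IRI overlapped in that order, and so did Control and Hemin. The interaction of Hemin and IRI is not read for Ptgs2, since it rests on 2 groups that are mostly at background.

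Both Ptgs2 probes were highest in IRI. The probe at mm9 chr1:151954744-151954803, spotted 10 times per array, rose by 4.19 in IRI vs Control, and the probe at mm9 chr1:151954416-151954475, spotted once, rose by 3.71. In IRI all of the repeated spots in use, 9 or 10 per array, were well above background, and in Control none was. IPC+IRI replicate 1 had 3 of 10 such spots above background, and IRI+Hemin replicate 4 had 7 of 10, with an SD between its spots of 0.849. On Hemin replicate 3, 6 of 10 were. In IPC+IRI the repeatedly spotted probe was well above background on 3 of 4 arrays, and the probe spotted once on 2. Nos1, a marker of the macula densa, where the uninjured kidney is known to make COX-2, went the other way. It fell by 1.22 in IRI vs Control, from a log2 level between -3.27 and -2.54 to one between -4.45 and -3.81. The tubular injury marker Lcn2 moved with Ptgs2. It was higher by 5.06 in IRI vs Control (adjusted p = 8.13e-08), and its difference from IRI was -2.06 in IPC+IRI (adjusted p = 0.001) and -1.32 in IRI+Hemin (adjusted p = 0.0188). Havcr1, the other injury marker, was not called in IRI vs Control or IPC+IRI vs IRI and was lower in IRI+Hemin than in IRI by 0.92 (adjusted p = 0.0293). The summed log2 level of both lay between 0.55 and 0.78 in Control, 2.12 and 2.64 in IRI, 0.50 and 1.82 in IRI+Hemin, 1.29 and 2.98 in IPC+IRI, and -0.54 and 0.42 in Hemin. The part of these cells in the Ptgs2 values was not tested.

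Ptgs1 encodes the constitutive cyclooxygenase COX-1. The arrays read 1.19, 1.29, 1.07 and 0.89 in Control and 1.78, 1.85, 1.69 and 1.54 in IRI, so all IRI arrays were higher. The difference was 0.61 ± 0.13 (adjusted p = 0.000954), or 1.52-fold. In IRI+Hemin it was 1.22, 0.91, 0.95 and 1.17 and in IPC+IRI 1.22, 1.08, 1.26 and 1.03. Both of these groups lay wholly below IRI and within the Control range. Ptgs1 was lower than in IRI by 0.65 on the log2 scale in IRI+Hemin (SE 0.13, adjusted p = 0.000728) and by 0.57 in IPC+IRI (SE 0.13, adjusted p = 0.00214).

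Hemin alone gave 1.00, 1.07, 1.50 and 1.52 for Ptgs1, a wide spread that overlapped Control (difference 0.16 ± 0.13, adjusted p = 0.347). Ptgs1 was the only one of the 9 genes tested with a called interaction of Hemin and IRI. Ischemia changed it by 0.61 without Hemin and by -0.21 ± 0.13 with Hemin (adjusted p = 0.199), and the interaction was -0.82 ± 0.19 (adjusted p = 0.0119). Among all 19058 genes tested for this interaction, 5.84% were called higher and 1.95% lower. By an unadjusted p below 0.05, none of the 9 was higher and 2 were lower. Normexp and no scaling between arrays ended the call, at -0.86 (adjusted p = 0.07) and -1.02 (adjusted p = 0.107). The same settings moved IPC+IRI vs IRI to -0.39 (adjusted p = 0.0596) and -0.25 (adjusted p = 0.391). No scaling also moved IRI+Hemin vs IRI to -0.29 (adjusted p = 0.307), when the median over all genes was 0.41 and 0.45 in these comparisons. Relative to those medians Ptgs1 stood at -0.66 and -0.74. Hemin vs Control was called for Ptgs1 without scaling (0.73, adjusted p = 0.0113), when the median over all genes was 0.62.

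Platelets are rich in COX-1, and their markers Pf4 and Ppbp were both called higher in IRI vs Control. Their summed log2 level lay between -2.46 and -0.82 in Control, -0.65 and -0.17 in IRI, -1.32 and -0.35 in IRI+Hemin, -1.05 and 0.07 in IPC+IRI, and -1.49 and -0.99 in Hemin. Neither was called in IPC+IRI or IRI+Hemin when compared with IRI. Of the 5 leukocyte markers, 1 of the 4 tested was higher in IRI vs Control, and the summed log2 level lay between 0.48 and 0.76 in Control and 1.05 and 1.44 in IRI. That marker, Cd68, was higher by 2.23 in IRI (adjusted p = 1.76e-05) and lower in IPC+IRI than in IRI by 0.82 (adjusted p = 0.0424), whereas Itgam and Emr1 were higher in IPC+IRI than in IRI, by 1.46 (adjusted p = 0.0283) and 1.67 (adjusted p = 0.00509). None of the 5 was called in IRI+Hemin vs IRI. The endothelial markers Pecam1, Cdh5 and Kdr had a summed log2 level between 1.09 and 1.62 in Control, 1.67 and 2.05 in IRI, 1.24 and 1.79 in IRI+Hemin, and 0.48 and 1.61 in IPC+IRI, with 1 of 3 higher and 1 lower in IRI vs Control. Cdh5 was higher by 1.39 in IRI than in Control (adjusted p = 0.000408) and lower than in IRI by 1.54 in IPC+IRI (adjusted p = 0.00027) and by 1.30 in IRI+Hemin (adjusted p = 0.00107), the directions also seen for Ptgs1 and Ptger4. Pecam1 was lower in IPC+IRI than in IRI, and Kdr was lower in IRI than in Control and higher in IRI+Hemin than in IRI. The part of these cells in the Ptgs1 and Ptger4 values was not tested.

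Ptges encodes the inducible microsomal PGE2 synthase, which is known to work with COX-2. Arrays read -1.21, -0.74, -1.08 and -0.95 in Control, -0.60, -0.08, -0.08 and 0.14 in IRI, and 0.37, 0.10, 0.16 and -0.04 in IPC+IRI. Both ischemic groups lay wholly above Control. The differences were 0.84 ± 0.15 for IRI (adjusted p = 0.000166) and 1.14 ± 0.15 for IPC+IRI (adjusted p = 7.99e-06), or 1.79-fold and 2.20-fold. In IRI+Hemin it read 0.07, -0.03, -0.18 and -0.16, which overlapped IRI (difference 0.08 ± 0.15, adjusted p = 0.697). IPC+IRI also overlapped IRI (difference 0.30 ± 0.15, adjusted p = 0.11), and without IRI replicate 4 this difference was 0.40 (adjusted p = 0.044). So Ptgs2 was lower with Hemin or preconditioning than with IRI alone, while for Ptges no fall was measured in either. Whether the differences from IRI are unequal for these 2 genes was not tested.

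With Hemin alone Ptges was -0.45, -0.66, -0.26 and -0.66, above all Control arrays and below all IRI+Hemin arrays. It was higher than Control by 0.49 ± 0.15 (adjusted p = 0.0178) and rose by a further 0.43 ± 0.15 in IRI+Hemin vs Hemin (adjusted p = 0.0264). The first call was lost without Control replicate 1 (0.41, adjusted p = 0.0604), without Hemin replicate 3 (0.40, adjusted p = 0.0648), with arrays scaled on their commonly detected probes (0.37, adjusted p = 0.0601) and with normexp (0.24, adjusted p = 0.185). The second was lost without Hemin replicate 2 or 4 or IRI+Hemin replicate 1 or 2 (0.38 to 0.42, adjusted p = 0.0574 to 0.0754), with the deposited log2 matrix (0.38, adjusted p = 0.0876) and without scaling (0.35, adjusted p = 0.338).

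Ptgds, which encodes the lipocalin-type PGD2 synthase, was well above background on all 20 arrays and not called in any of the 7 comparisons. Its group means ran from -0.51 in IRI to -0.06 in Hemin, and all groups overlapped. Control replicate 1, at 0.52, lay above the remaining Control arrays, which read -0.62 to -0.53. Without it IRI vs Control was 0.06 (adjusted p = 0.857) in place of -0.21 ± 0.28 (adjusted p = 0.547). Hemin vs Control was called for Ptgds only without scaling (0.81, adjusted p = 0.0417), when the median over all genes was 0.62.

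Ptger4 encodes EP4, a receptor that raises cAMP, and it had the next widest range of group means. It read -3.32, -3.85, -3.47 and -3.25 in Control and -2.42, -2.57, -2.37 and -2.11 in IRI. All IRI arrays lay above all arrays of the other 4 groups. The rise over Control was 1.11 ± 0.17 (adjusted p = 4.48e-05), or 2.15-fold. IRI+Hemin arrays read -3.48, -3.47, -3.71 and -3.44 and IPC+IRI arrays -3.68, -3.27, -3.11 and -3.97. The IRI+Hemin arrays lay within the Control range, and the IPC+IRI arrays spread to both sides of it. Ptger4 was thus lower than in IRI by 1.16 on the log2 scale in IRI+Hemin (SE 0.17, adjusted p = 5.91e-05) and by 1.14 in IPC+IRI (SE 0.17, adjusted p = 6.9e-05). IPC+IRI vs Control gave -0.03 ± 0.17 (adjusted p = 0.88).

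With Hemin alone Ptger4 read -4.89, -4.58, -4.52 and -4.58, below every other array of the series. The difference from Control was -1.17 ± 0.17 (adjusted p = 0.000154), or 2.24-fold lower. From this lower level Ptger4 rose by 1.12 ± 0.17 in IRI+Hemin vs Hemin (adjusted p = 7.15e-05), beside 1.11 in IRI vs Control. The interaction was 0.01 ± 0.24 (adjusted p = 0.989). The order of means was IRI (-2.37), Control (-3.47), IPC+IRI (-3.51), IRI+Hemin (-3.52) and Hemin (-4.64), and the middle groups overlapped each other. None of the 5 leukocyte markers and none of the 3 endothelial markers was called in Hemin vs Control. Normexp ended the calls of IRI vs Control (0.49, adjusted p = 0.0754) and IRI+Hemin vs Hemin (0.36, adjusted p = 0.185). No scaling ended that of Hemin vs Control (-0.60, adjusted p = 0.0871), with a median over all genes of 0.62.

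The Ptger4 signal came from 1 of its 2 probes. The probe at mm9 chr15:5184419-5184478 was well above background on all 20 arrays and differed by 1.15 in IRI vs Control. The probe at mm9 chr15:5156675-5156734, designed to a separate cDNA, was well above background on none.

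Ptger3 encodes EP3, a receptor that lowers cAMP and is known from the thick ascending limb and collecting duct. Its log2 expression was 0.46, 0.39, -0.33 and -0.09 in Control, 0.09, -0.04, -0.43 and -0.43 in IRI, and 1.23, 0.41, 0.37 and 0.83 in IPC+IRI. The preconditioned kidneys lay wholly above IRI. Ptger3 was higher in IPC+IRI than in IRI by 0.92 ± 0.20 (adjusted p = 0.00161), or 1.89-fold. It was the only one of the 9 genes called higher in that comparison. Against Control, which overlapped, it was higher by 0.61 ± 0.20 (adjusted p = 0.0176). That call was lost without Control replicate 3 (0.46, adjusted p = 0.0733), Control replicate 4 (0.54, adjusted p = 0.0531) or IPC+IRI replicate 1 (0.43, adjusted p = 0.0732), and with the compared arrays alone (0.61, adjusted p = 0.0668). With the deposited log2 matrix the 2 differences were 0.62 (adjusted p = 0.053) and 0.27 (adjusted p = 0.395).

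IRI+Hemin arrays read 0.02, -0.04, 0.11 and 0.43 for Ptger3 and Hemin arrays 0.74, 0.41, 0.39 and 0.63. Neither group was called against its comparator (IRI+Hemin vs IRI 0.33 ± 0.20, adjusted p = 0.197, and Hemin vs Control 0.43 ± 0.20, adjusted p = 0.106). Without scaling they were called, at 0.70 (adjusted p = 0.0278) and 1.00 (adjusted p = 0.00284), with medians over all genes of 0.45 and 0.62. IRI+Hemin vs Hemin was -0.41 ± 0.21 (adjusted p = 0.112), and was called with the compared arrays alone (adjusted p = 0.0355). The 3 Ptger3 probes disagreed. The brightest, at mm9 chr3:157307508-157307567, rose by 1.02 in IPC+IRI vs IRI and by 0.71 in IPC+IRI vs Control. The second, whose sequence is split between mm9 chr3:157230799 and chr3:157267977, moved by 0.25 and -0.01. The third, at mm9 chr3:157270101-157270160 and designed to another EP3 transcript, was well above background on no array. As the mean of log2 over the probes, IPC+IRI vs Control was 0.31 (adjusted p = 0.209).
All 3 principal cell markers of the collecting duct, Aqp2, Aqp3 and Scnn1g, were also higher in IPC+IRI vs Control, with a summed log2 level of 5.11 to 5.86 against 4.54 to 5.04 and of 5.02 to 5.62 in IRI. That level was 5.29 to 5.72 in IRI+Hemin and 5.02 to 5.45 in Hemin. In IRI+Hemin vs IRI, where Ptger3 was not called, Aqp3 was higher by 0.43 (adjusted p = 0.0388) and Scnn1g by 0.40 (adjusted p = 0.0174). Aqp2 was not called there. In IPC+IRI vs IRI none of the 3 was called, but both markers of the intercalated cells were higher, Slc4a1 by 1.06 (adjusted p = 0.016) and Atp6v1g3 by 0.43 (adjusted p = 0.0252), with a summed log2 level of 2.42 to 3.07 against 1.86 to 2.50 in IRI. In IPC+IRI vs Control neither was called. Neither of the 2 thick ascending limb markers was called in these comparisons. Their part in the Ptger3 values was not tested.

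**Figure D2:**
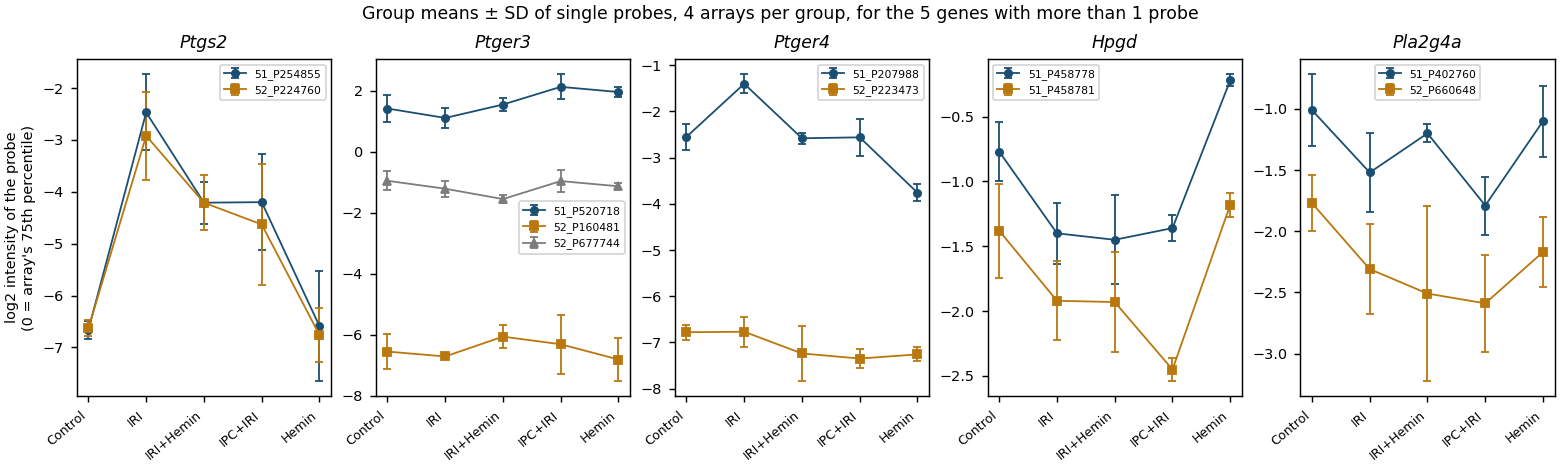
Group means with SD over 4 arrays for single probes of the 5 genes with more than 1 probe, as log2 intensity over the array's 75th percentile. Both Ptgs2 probes peak in IRI, only the upper Ptger3 probe is higher in IPC+IRI (2.13) than in IRI (1.11) by more than 1, and the lower Ptger4 probe lies at or below -6.77 in every group.

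Ptger1 encodes EP1, a receptor that acts through calcium. It was well above background on all arrays but IRI replicate 3, and varied widely, from -4.70 to -2.63 in IRI and from -4.36 to -2.17 in IRI+Hemin. No comparison called it. The largest difference was -1.27 ± 0.55 in IRI+Hemin vs Hemin (adjusted p = 0.0684), with overlapping groups. It passed the threshold without Hemin replicate 2 (-1.54, adjusted p = 0.0463) or IRI+Hemin replicate 4 (-1.66, adjusted p = 0.0228). Ptger2, which encodes EP2, a second receptor that raises cAMP, was at the limit of the arrays. It was well above background on none of the Control or IRI arrays, 1 array each of IRI+Hemin and IPC+IRI, and 2 of Hemin. Exact two-sided permutation tests of its 6 differences between groups gave p from 0.143 to 0.771.

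Hpgd encodes the dehydrogenase that begins the breakdown of prostaglandins. It read -0.95, -1.15, -1.33 and -0.72 in Control, -1.43, -1.88, -1.85 and -1.39 in IRI, and -1.70, -1.88, -1.82 and -1.81 in IPC+IRI. Both ischemic groups lay wholly below Control. Hpgd fell by 0.60 on the log2 scale in IRI (SE 0.16, adjusted p = 0.00531) and by 0.76 in IPC+IRI (SE 0.16, adjusted p = 0.000773). IRI+Hemin arrays read -1.97, -1.47, -1.98 and -1.27, which overlapped IRI (difference -0.03 ± 0.16, adjusted p = 0.892).

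The Hemin arrays were the highest of the series for Hpgd, at -0.60, -0.68, -0.55 and -0.65, without overlap with Control. That difference of 0.42 ± 0.16 missed the threshold (adjusted p = 0.0553), and passed it without Control replicate 4 (0.52, adjusted p = 0.0299), with quantile normalization (0.47, adjusted p = 0.0294), with the brighter probe alone (0.55, adjusted p = 0.0115), with the deposited log2 matrix (0.68, adjusted p = 0.0166), with the compared arrays alone (0.42, adjusted p = 0.0362) and without scaling (0.98, adjusted p = 0.00398, when the median over all genes was 0.62). With normexp it was 0.17 and not called. Against Hemin alone, IRI+Hemin was lower by 1.05 on the log2 scale (SE 0.16, adjusted p = 8.08e-05), or 2.07-fold. The interaction was -0.45 ± 0.23 (adjusted p = 0.268). IRI vs Control lost its call with normexp (-0.22, adjusted p = 0.479) and without scaling (-0.48, adjusted p = 0.163). IPC+IRI vs Control lost it with the deposited log2 matrix (-0.49, adjusted p = 0.0543) and without scaling (-0.33, adjusted p = 0.303), when the median over all genes was 0.35.

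**Figure D3:**
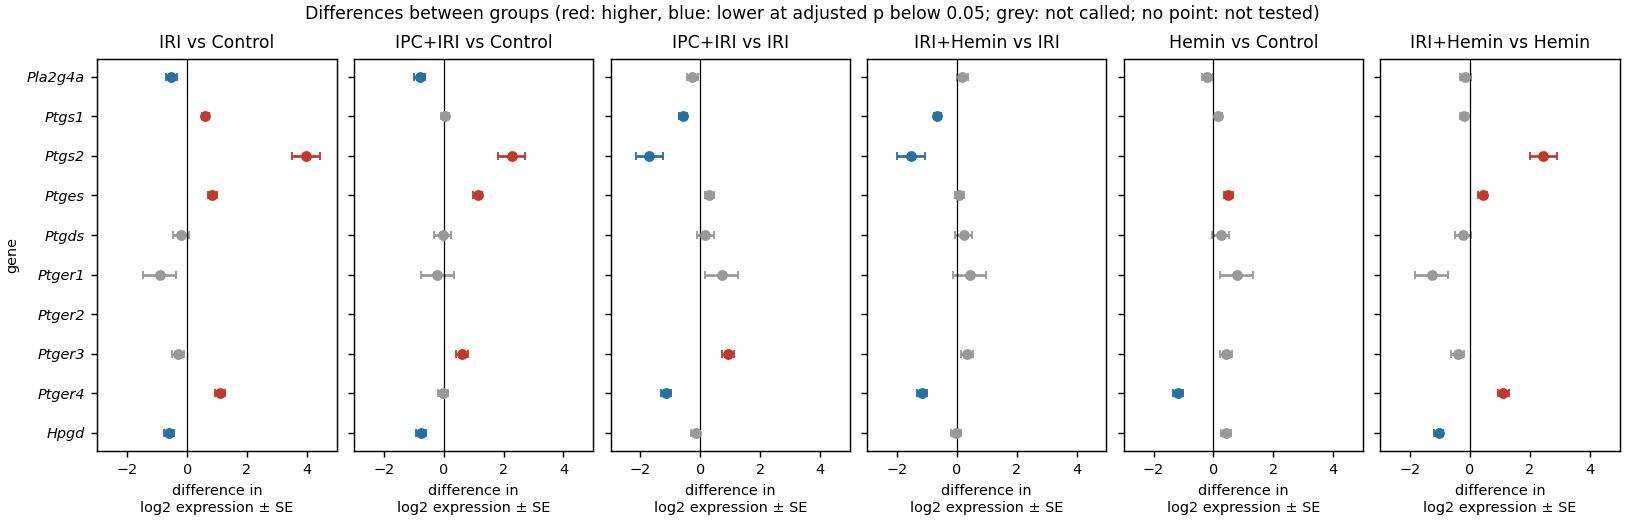
Differences in log2 expression with SE for the 10 genes in 6 comparisons. Red points were called higher and blue points lower at an adjusted p below 0.05, grey points were not called, and Ptger2 and 1 Ptgs2 difference were not tested. Ptgs1, Ptgs2 and Ptger4 are red in IRI vs Control and blue in both comparisons with IRI, and all 3 comparisons use the same IRI arrays.

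Set side by side, the comparisons differed in which of the 9 tested genes they called. Ptgs2 entered the tests against Control and Hemin only through the ischemic group. IPC+IRI vs Control called 3 higher (Ptgs2, Ptges and Ptger3) and 2 lower (Hpgd and Pla2g4a), where 23.3% of all genes were higher and 32.8% lower. IPC+IRI vs IRI called 1 higher (Ptger3) and 3 lower (Ptgs1, Ptgs2 and Ptger4), where 26.3% of all genes were higher and 17.9% lower. IRI+Hemin vs IRI called the same 3 genes lower and none higher, where 26.4% of all genes were higher and 18.2% lower, and limma gave no higher gene at an unadjusted p below 0.05 either. These comparisons share the IRI arrays with IRI vs Control, so a high reading on those arrays enters all of them. Hemin vs Control, with 8 genes tested, called 1 higher (Ptges) and 1 lower (Ptger4), where 18.6% of all genes were higher and 17.6% lower. IRI+Hemin vs Hemin called 3 higher (Ptgs2, Ptges and Ptger4) and 1 lower (Hpgd), where 16.5% of all genes were higher and 27.9% lower.

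Other genes of the pathway were taken as a list of 47, of which 46 were on the array. In IRI vs Control 3 of the 34 tested were higher and 15 lower, where 17.1% of all genes were higher and 33.9% lower, with a median difference of -0.29. The higher ones were Ptgfr, the PGF2α receptor, Slco2a1, the prostaglandin transporter (0.51, adjusted p = 0.00994), and Ptges3, a cytosolic PGE2 synthase (0.29, adjusted p = 0.0418). Slco2a1 and Ptges3 are named after their values were seen. Ptgfr rose by 1.54 ± 0.21 (adjusted p = 9.86e-06), from a range of -0.56 to 0.16 in Control to 0.77 to 1.75 in IRI. It stayed high in IRI+Hemin (0.94 to 1.79) and IPC+IRI (1.67 to 1.87), and was not called against IRI in either.

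Of the 10 phospholipase A2 genes tested in IRI vs Control, 7 fell and none rose, also at an unadjusted p below 0.05, where 33.9% of all genes were lower and 17.1% higher. Of the 7, Pla2g2d, Pla2g2f and Pla2g3 entered the test only through the Control arrays, where they were higher, so a count over the genes tested is no evidence about the class. The other 4 were well above background on all Control and IRI arrays. Pla2g3, a secreted phospholipase, fell by 2.25 (SE 0.22, adjusted p = 2.72e-07), from -2.56 to -2.08 in Control to -5.03 to -4.33 in IRI, where 2 of 4 arrays were well above background. The secreted Pla2g5 fell by 1.38 (SE 0.20, adjusted p = 1.98e-05), the cytosolic Pla2g4b by 1.33 (SE 0.22, adjusted p = 9.56e-05) and the lysosomal Pla2g15 by 1.30 (SE 0.17, adjusted p = 1.02e-05). Pla2g2d and Pla2g2f were well above background on no IRI array. Control was at least 1.79-fold higher for Pla2g2d and at least 2.26-fold higher for Pla2g2f. The cytosolic Pla2g4c fell by 1.12 (SE 0.30, adjusted p = 0.00489).

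With Hemin, Pla2g15 was higher than in IRI by 0.74 ± 0.17 (adjusted p = 0.00239), and with preconditioning by 0.97 ± 0.17 (adjusted p = 0.000285). Pla2g4c went further down. IRI was at least 1.43-fold higher than IRI+Hemin, where no array was well above background, and IPC+IRI was lower than IRI by 0.78 on the log2 scale (SE 0.30, adjusted p = 0.0437). In Hemin vs Control Pla2g4c fell by 1.98 (SE 0.30, adjusted p = 0.000192), with 2 of 4 Hemin arrays well above background, and Pla2g3 fell by 1.00 (SE 0.22, adjusted p = 0.0019). Interactions are not read for Pla2g3 and Pla2g2f, which were at background on some or all IRI arrays.

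The mRNA of 2 thromboxane genes, those of the synthase and of the receptor, was lower in IRI vs Control, where 33.9% of all genes were lower. Tbxas1, thromboxane synthase, ranged from -0.09 to 0.53 in Control and from -1.96 to -1.33 in IRI, a fall of 1.94 on the log2 scale (SE 0.24, adjusted p = 4.23e-06). Tbxa2r, the thromboxane receptor, ranged from -1.59 to -1.25 in Control and from -5.14 to -3.43 in IRI, a fall of 2.57 (SE 0.39, adjusted p = 3.5e-05). Neither gene's groups overlapped. In IRI+Hemin both were higher than in IRI, Tbxas1 by 0.71 ± 0.24 (adjusted p = 0.0215) and Tbxa2r by 1.24 ± 0.39 (adjusted p = 0.0149). In IPC+IRI Tbxas1 was higher than in IRI by 1.02 ± 0.24 (adjusted p = 0.0024), and Tbxa2r was not called (0.25 ± 0.39, adjusted p = 0.621).

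Among the reductases, Cbr1, a carbonyl reductase that can turn PGE2 into PGF2α, fell by 1.01 in IRI (SE 0.23, adjusted p = 0.00127). It was higher than IRI by 1.36 ± 0.23 in IRI+Hemin (adjusted p = 0.000159) and by 1.04 ± 0.23 in IPC+IRI (adjusted p = 0.00143), with an interaction of 1.20 ± 0.32 (adjusted p = 0.0285). Akr1c18, an aldo-keto reductase of steroids and prostaglandins, fell by 1.39 in IRI (SE 0.49, adjusted p = 0.0237). In IRI+Hemin vs Hemin it fell by 2.77 (SE 0.49, adjusted p = 0.000232), where the IRI+Hemin arrays ran from -2.23 to 0.55.

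Over the whole list, 3 of the 35 genes tested were called higher and 15 lower in IPC+IRI vs Control, beside 23.3% and 32.8% of all genes. In IPC+IRI vs IRI 6 of 34 were higher and 4 lower, beside 26.3% and 17.9%. In IRI+Hemin vs IRI 8 of 34 were higher and 6 lower, beside 26.4% and 18.2%, and in Hemin vs Control 1 of 35 was higher and 4 lower, beside 18.6% and 17.6%. In IRI+Hemin vs Hemin 4 of 33 were higher and 15 lower, beside 16.5% and 27.9%. The interaction was positive for 3 of 35 and negative for 2, beside 5.84% and 1.95%. Several of these counts lie near the shares over all genes, and nothing particular to the list is read from them. The list's members were chosen by pathway with earlier results of these data known, and its counts are a description.

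**Figure D4:**
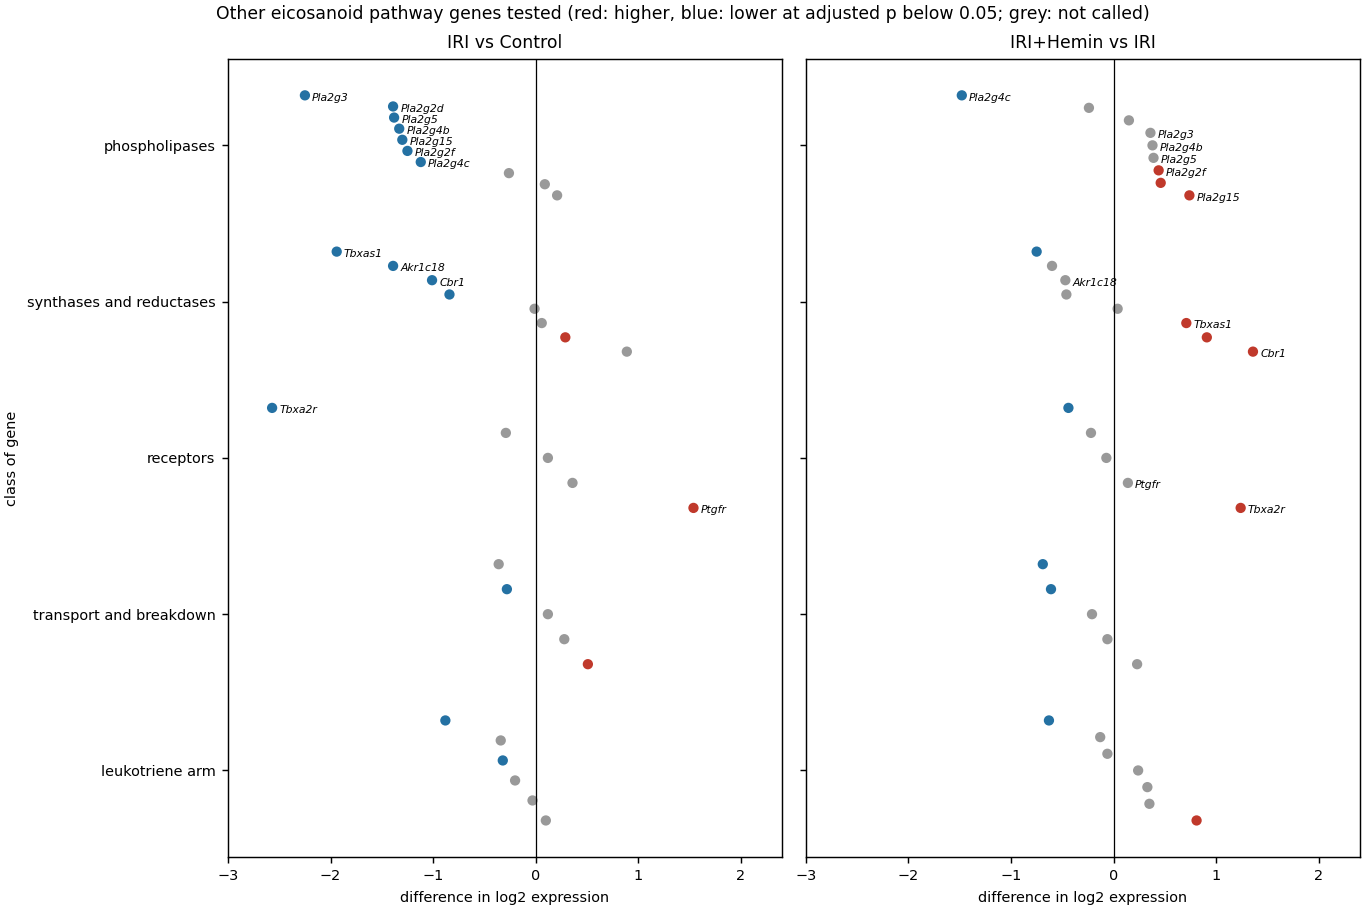
Differences in log2 expression of the other pathway genes tested, by class, in IRI vs Control (34 genes) and IRI+Hemin vs IRI (34 genes), with the genes of largest change labelled. Blue points were called lower, red points higher and grey points not called. In IRI vs Control 7 of the 10 phospholipases are blue, and Ptgfr is at 1.54. The panels share the IRI arrays.

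Across the 20 arrays, the 3 gene names whose log2 expression was most like that of Ptgs2 were Klf5 (Pearson r = 0.961), Gem (0.955) and F3 (0.945), out of 16201 names measured on at least 16 arrays. Ptgs2 itself was well above background on none of the 4 Control and 1 of the 4 Hemin arrays, so its correlations and their ranking include background readings. F3, the gene of tissue factor, had its highest group mean in IRI (3.73), followed by IRI+Hemin (2.73), IPC+IRI (2.27), Control (0.37) and Hemin (0.29). For Ptger4 they were Etv3 (0.953), Sema4b (0.952) and Mlxip (0.946). Sema4b was likewise highest in IRI (-1.62) and lowest in Hemin (-3.65), with Control at -2.57 and IPC+IRI at -2.75. For Ptger1, the next in range of group means, they were Ptplad2 (0.889), D430041B17Rik (0.871) and AK033780 (0.867). These correlations pool arrays of 5 groups, slides and 3 scan days and describe likeness of pattern.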

How the data were processed

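Kidney RNA was labelled with Cy3 and hybridised to 20 single-colour Agilent mouse arrays. Per the labels, the authors scanned and quantified them with Agilent Feature Extraction 9.5.3.1, and the deposited scanner tables give each spot's intensity after background subtraction. The authors also deposited a log2 matrix with a row for 33825 probes, 32.7% of its values blank, which was used only as an alternative. Probe positions are those of the scanner tables, on mouse build mm9.

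The log2 of the processed intensity was taken relative to the 75th percentile of each array, after control spots and outlier spots had been removed. Spots were averaged per probe and the linear signals of a gene name's probes were averaged, so bright probes weigh most. Dim genes were kept where at least 3 of 4 arrays of either group compared were well above background. One model with 5 groups was fitted to all genes with limma 3.58.1 in R 4.3.3 (with the data.table package, version 1.17.8), with p-values adjusted by Benjamini-Hochberg over all genes tested in a comparison and calls at 0.05. Where a member was not in the limma fit of a comparison, its group means were compared by an exact two-sided permutation test, 4 against 4 arrays. The fit was tested on simulated data.

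The members and lists were chosen with earlier results of these data known. Named were the 10 members, at most 12 called genes of the pathway list by largest difference, cell type markers, and the 3 names most correlated with each of 3 members. Alternatives changed the background correction, scaling, filter on dim genes, handling of probes, values, arrays in the fit, fold cutoff and replicate number. The number of arrays limits the precision.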

Additional observations from a re-analysis of the deposited data

Results flagged for a closer look

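In a group of 4 arrays, an array was noted where its gap to the nearest other array, as a share of the group's range, exceeded Dixon's critical value for 4 samples. Of the 50 groups examined (10 genes in 5 groups), 3 held such an array, where chance gives about 1 in 20. Hemin replicate 3 read -5.42 for Ptgs2, beside -7.12 to -6.97 on the other Hemin arrays. Control replicate 1 read 0.52 for Ptgds, beside -0.62 to -0.53 on the other Control arrays. Hemin replicate 1 read -4.89 for Ptger4, beside -4.58 to -4.52 on the other Hemin arrays.

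The change of Ptgs1 with ischemia differed between mice with and without Hemin, by an interaction term of -0.82 (adjusted p = 0.0119, limma).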

How the results depend on the processing

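The arrays hold 1 slide per group, so a random slide block could not be fitted and was not run. With fold cutoffs of 2-fold to 4-fold, those the study states where it states them and 3-fold, chosen here, for IRI+Hemin vs IRI, IRI+Hemin vs Hemin and the interaction, the number of the 10 genes called fell from 6 to 1 in IRI vs Control, 5 to 1 in IPC+IRI vs Control, 4 to 1 in IPC+IRI vs IRI, 3 to 0 in IRI+Hemin vs IRI, 2 to 0 in Hemin vs Control, 4 to 1 in IRI+Hemin vs Hemin and 1 to 0 for the interaction. The other pathway genes fell, in the same order, from 18 to 11, 18 to 7, 10 to 0, 14 to 0, 5 to 1, 19 to 2 and 5 to 0. With normexp the 10 genes gave 3 calls in IRI vs Control, 2 in IRI+Hemin vs Hemin, 1 in Hemin vs Control and 0 for the interaction, and the other pathway genes 7 in IRI vs Control, 9 in IPC+IRI vs Control, 6 in IPC+IRI vs IRI, 2 in Hemin vs Control and 0 for the interaction. Without scaling the 10 genes gave 3 calls in IPC+IRI vs Control, 5 in Hemin vs Control and 0 for the interaction, and the other genes 16 in Hemin vs Control and 1 for the interaction. The deposited matrix gave 2 of the 10 genes in IPC+IRI vs Control, 2 in IRI+Hemin vs Hemin, and 3 other genes in Hemin vs Control. Scaling by probes well above background left 1 of the 10 genes in Hemin vs Control, and the compared arrays alone gave 9 other genes there. The cause of these shifts was not tested.

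Leaving out 1 array at a time gave, for the 10 genes, 5 to 6 calls in IRI vs Control, 4 to 5 in IPC+IRI vs Control, 4 to 5 in IPC+IRI vs IRI, 3 in IRI+Hemin vs IRI, 1 to 3 in Hemin vs Control (1 without Control replicate 1 or Hemin replicate 3), 3 to 5 in IRI+Hemin vs Hemin and 1 for the interaction. The other pathway genes gave 16 to 18, 15 to 17, 9 to 12, 12 to 14, 4 to 6, 15 to 19 and 3 to 5 (3 without Hemin replicate 1, 2 or 3), in the same order. Of the differences of single members, none that was called changed sign. Counted over all settings, 64 values of uncalled differences had the opposite sign, and none of these was called.

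Replicate numbers did not pair the arrays. Deviations of same-numbered arrays correlated at -0.384 to 0.213 (40 pairs, median -0.031), and 2 of 20 arrays correlated best with their own number. With the replicate block, calls of the 10 genes were 3 in Hemin vs Control, where Hpgd joined (0.42, adjusted p = 0.0439), and equal in number elsewhere. Without scaling, 94.7% of called genes were higher in Hemin vs Control, against 51.3% with it. For IPC+IRI vs IRI these were 90.7% and 59.5%, for IRI+Hemin vs IRI 91.4% and 59.2%, and for IPC+IRI vs Control 75.2% and 41.5%. With normexp 56.1% of called genes were higher in IRI vs Control, against 33.5%.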
